A study of Mus musculus with 24 samples.

Results

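The 9 laminin chain genes *Lama2*, *Lama3*, *Lama4*, *Lama5*, *Lamb1*, *Lamb2*, *Lamb3*, *Lamc1*, and *Lamc3* were followed in mouse liver, out of 23972 genes with deposited read counts. They were selected as laminin chains with earlier values of these libraries in view, so the list counts as chosen by the measured liver levels, the difference in *Lamb3* between *Lmna* ADKO and control livers included. Which value led to each gene is not stated. Therefore, differences between genotypes in these 9 genes are given as a description with no test. *Lama1*, another α chain gene, was not on the list and is given beside it.

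Liver RNA was sequenced from 24 female mice, 1 library each. All carried *Lmna* alleles flanked by loxP sites (*Lmna* fl/fl), were housed at 22°C, were 12 to 14 weeks old at the start, and ate a diet with 60% of calories from fat for 4 weeks before treatment and for the 8 weeks until tissue collection. Controls lacked *Adipoq*-Cre, and *Lmna* ADKO mice carried it, so that *Lmna*, which encodes the nuclear lamins A and C, was deleted in adipocytes and not by design in liver cells. Mice received a vehicle of PBS and Pluronic, or an AAV8 vector for mouse FGF21, a liver hormone with metabolic actions. There were 7 control vehicle, 3 control FGF21, 6 *Lmna* ADKO vehicle, and 8 *Lmna* ADKO FGF21 libraries. The labels call the treatment a rescue, and its reading as FGF21 comes from the study's methods. Library totals were similar, from 19863304 to 21510054 reads assigned to genes. *Fgf21* itself ranged from 3.14 to 7.40 CPM (reads of a gene scaled to the effective size of its library) in control FGF21 libraries and from 1.90 to 10.8 CPM in control vehicle libraries, and from 2.19 to 9.99 CPM with FGF21 and from 4.63 to 10.6 CPM with vehicle in *Lmna* ADKO livers, so its counts do not separate the treated libraries. *Lmna* was 18.6 ± 2.47 CPM (SD, n = 7) in control vehicle and 26.7 ± 2.57 CPM (SD, n = 6) in *Lmna* ADKO vehicle livers, where no deletion is intended. Livers of all groups carried the hepatocyte markers *Alb*, *Ttr*, and *Apoa1* at high levels, and the 5 hepatocyte markers summed to between 65514 and 135548 CPM in every library. Control vehicle library 3, control FGF21 library 3, and *Lmna* ADKO FGF21 library 7 stood apart in that their values were lower the longer the gene was, relative to the other libraries of their genotype, so values without them are given where they change a result. Libraries are numbered within groups in the order of the animal numbers on the labels. These numbers have 3 digits in 6 of 7 control vehicle and 1 of 6 *Lmna* ADKO vehicle mice and 4 digits in the others of these groups, so genotype and number series were nearly confounded with vehicle. All 3 control FGF21 mice have 4-digit numbers, so treatment and number series were nearly confounded in controls too, which also bears on the interaction, and what the series stand for is not stated.

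Laminins are large glycoproteins of basement membranes, the sheets of matrix on which epithelial, endothelial, muscle, fat, and nerve cells rest. Each is a heterotrimer of an α, a β, and a γ chain, which assemble inside the cell, polymerize outside it, and are linked by nidogen to a network of type IV collagen. Cells hold on to them through integrins, dystroglycan, and other receptors. In liver, hepatocytes face a space with little organized basement membrane, whereas bile ducts, vessels, and nerves have one, and laminin is known to accumulate along sinusoids in fibrosis. The β3 chain, encoded by *Lamb3*, assembles with the α3 chain (*Lama3*) in the laminin that anchors stratified epithelia through hemidesmosomes.

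*Lamb3* lies on the plus strand of chromosome 1 (GRCm38, 193207699 to 193343878). In GENCODE, its longest transcripts start upstream of the RefSeq start used here and span *Hsd11b1* and *G0s2* on the opposite strand, and its exons share 0 bases with those of any other gene. The sequences before the starts of the 3 β chain genes are shown because *Lamb3* had a much larger fold change between genotypes than *Lamb1* and *Lamb2*. They are from RefSeq (GRCm38.p6), 5′ to 3′ on the plus strand, each trimmed where an annotated exon begins, for *Lamb3* at chr1:193301744-193301992, for *Lamb1* at chr12:31265043-31265233, and for *Lamb2* at chr9:108479612-108479735. Capitals mark the letters GGGCGG or its reverse complement, known as a GC box.
Lamb3: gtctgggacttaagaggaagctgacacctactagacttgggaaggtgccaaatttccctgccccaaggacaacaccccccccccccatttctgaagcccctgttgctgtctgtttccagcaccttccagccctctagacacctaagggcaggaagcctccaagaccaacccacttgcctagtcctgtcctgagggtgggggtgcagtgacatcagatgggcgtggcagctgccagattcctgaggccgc
Lamb1: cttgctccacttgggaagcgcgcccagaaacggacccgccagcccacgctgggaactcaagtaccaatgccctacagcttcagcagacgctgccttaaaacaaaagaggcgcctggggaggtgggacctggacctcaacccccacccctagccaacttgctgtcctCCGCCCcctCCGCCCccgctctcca
Lamb2: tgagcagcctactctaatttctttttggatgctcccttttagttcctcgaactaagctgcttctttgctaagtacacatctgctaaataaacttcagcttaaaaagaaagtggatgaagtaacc
The *Lamb1* stretch held the GC box letters at 2 places and the other stretches at 0. Of 32851 RefSeq windows from 250 bases before to 50 bases after a start, 35.7% held these letters on either strand. The letters TGANTCA, known for AP-1, were held by 7.81% of windows on either strand. The core promoter letters TATAAA were held by 13.6% and the letters GGAATG, known for TEAD factors, by 14.7%. None of these was in the stretches shown. These stretches are 249 (*Lamb3*), 191 (*Lamb1*), and 124 (*Lamb2*) bases long and hold none after the start. The shares over the longer windows therefore do not apply to them directly. RefSeq has another *Lamb3* start, not shown, whose window held the TEAD letters once, at position -167 from that start. Of the listed chains, RefSeq windows were also matched for *Lama5* and *Lama2*, and both held the GC box letters. *Lama3*, *Lama4*, *Lamc1*, and *Lamc3* were not printed. The counts sum all starts of a gene, so no start can be assigned to the reads.

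*Lamb3* was the chain with the largest difference between genotypes. In control vehicle livers, its level had a lowest value of 3.21, a median of 4.68, and a highest value of 7.42 CPM. In the 3 control FGF21 livers, it was 2.76, 4.19, and 7.86 CPM. In *Lmna* ADKO vehicle livers, the lowest value was 19.8, the median 43.0, and the highest 94.5 CPM. In *Lmna* ADKO FGF21 livers, the lowest value was 11.5, the median 17.4, and the highest 40.8 CPM. Every *Lmna* ADKO library was above every control library, whereas the treated and untreated *Lmna* ADKO groups overlapped. The means were 4.69 ± 1.55 CPM (SD, n = 7) and 49.9 ± 27.8 CPM (SD, n = 6) with vehicle, 10.6-fold apart (log2 fold change 3.41, standard error 0.367), and 4.94 ± 2.63 CPM (SD, n = 3) and 20.02 ± 9.002 CPM (SD, n = 8) with FGF21, 4.09-fold apart (log2 fold change 2.03, standard error 0.481). The single *Lmna* ADKO vehicle mouse with a 3-digit number had 33.4 CPM, and the single control vehicle mouse with a 4-digit number had 4.68 CPM, so both lay with their genotype. In bulk liver, more cells of a type and more RNA per cell cannot be told apart.

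**Figure D1:**
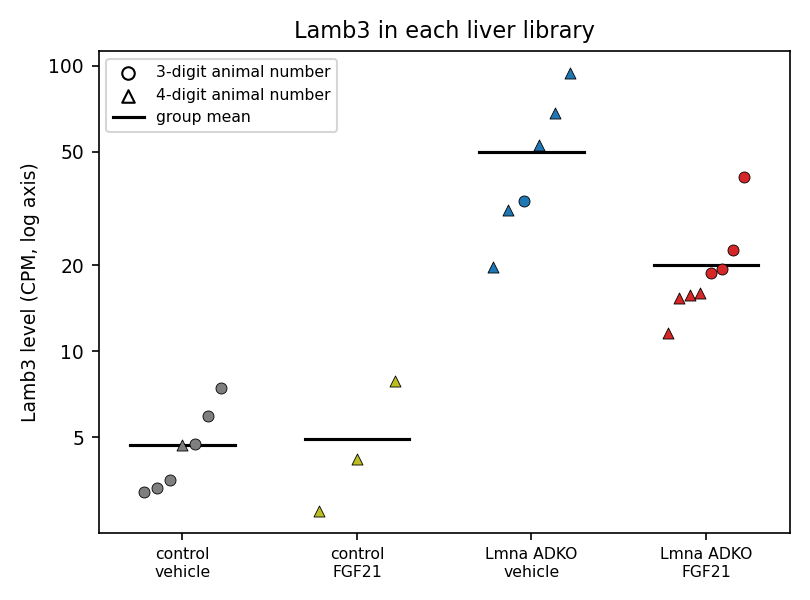
Level of *Lamb3* in each of the 24 liver libraries by group, in CPM on a log axis, with circles for 3-digit and triangles for 4-digit animal numbers and a bar for each group mean. All 10 control libraries lie at or below 7.86 CPM and all 14 *Lmna* ADKO libraries at or above 11.5 CPM.

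Levels of *Lamb3* with FGF21 and with vehicle were compared within each genotype. In *Lmna* ADKO livers, all 8 FGF21 libraries lay below the vehicle median of 43.0 CPM, and the mean log2 CPM was lower by 1.22 (exact two-sided permutation test of 8 against 6 libraries, p = 0.00932). The vehicle libraries of this test also entered the genotype difference by which *Lamb3* counts as chosen, so they are not independent of that choice. A vehicle group chosen for high values would favor a lower FGF21 group. Which value led to *Lamb3* is not stated, so its FGF21 difference may have entered the choice too. No p-value given here for *Lamb3* is therefore an independent test of FGF21. In the fit over all genes, the difference did not pass the threshold (log2 fold change -1.32, standard error 0.323, edgeR's quasi-likelihood test, unadjusted p = 0.000539, adjusted p = 0.537). DESeq2 gave the same size with an adjusted p of 0.0258. Without *Lmna* ADKO FGF21 library 3, the highest of its group, edgeR gave a log2 fold change of -1.55 with an adjusted p of 0.03. In no other edgeR setting did the difference pass. With any other single library of these groups left out, the edgeR adjusted p ran from 0.109 to 0.808. It was 0.488 with the number series as a covariate and 0.577 in only the mice with 4-digit numbers. Within the mice with 4-digit numbers, the 4 FGF21 libraries ranged from 11.5 to 16.0 CPM and the 5 vehicle libraries from 19.8 to 94.5 CPM, with no overlap (p = 0.0159 by the exact permutation test, and no smaller value is possible with 4 and 5 libraries). Of all genes, 2.06% did not overlap between these 2 sets of libraries. Among the mice with 3-digit numbers, 4 FGF21 libraries ranged from 18.7 to 40.8 CPM around the single vehicle library at 33.4 CPM, which allows no test. In controls, the mean log2 CPM differed by 0.0044 (exact two-sided permutation test of 3 against 7 libraries, p = 1, with 0.0167 the smallest possible). The difference between the 2 treatment effects, the interaction, was -1.38 on the log2 scale (standard error 0.558), given without a test because it contains the genotype difference with vehicle. Without the 3 libraries with a length slope the interaction was -0.77 (standard error 0.693), and without control FGF21 library 3 alone it was -0.88 (standard error 0.63).

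*Lama3*, for the α3 chain that assembles with β3, was covered by few reads in every group. It ranged from 0.243 to 0.877 CPM in control vehicle and from 0.299 to 0.682 CPM in *Lmna* ADKO vehicle livers, and its log2 fold change was -0.26 (standard error 0.312). With FGF21, *Lama3* was 0.475 to 0.649 CPM in controls and 0.118 to 0.414 CPM in *Lmna* ADKO livers, with -1.03 as the log2 fold change (standard error 0.38), from 10 to 13 and from 2 to 9 reads per library. These groups did not overlap, but the lowest *Lmna* ADKO library held 2 reads, under the 3 reads (0.124 to 0.176 CPM) taken as the floor of detection, which covers counting error only. *Col17a1*, a transmembrane collagen of hemidesmosomes, had a mean of at most 0.0806 CPM in any group. *Itgb4*, the integrin β4 of hemidesmosomes, had a mean of 0.680 CPM in control vehicle and 0.754 CPM in *Lmna* ADKO vehicle livers (log2 fold change 0.16, standard error 0.305, edgeR adjusted p = 0.799).

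Levels of different chains were compared per kilobase of exon (CPM per kb). In control vehicle livers, *Lamc1* was highest at 1.44 ± 0.228 CPM per kb (SD, n = 7), followed by *Lamb2* at 1.02 ± 0.113, *Lamb1* at 0.88 ± 0.187, and *Lamb3* at 0.709 ± 0.235, with ranges that overlapped from each to the next. *Lama1*, *Lama4*, *Lamc3*, and *Lama5* followed from 0.571 down to 0.192, again overlapping neighbor by neighbor. *Lama2* and *Lama3* were lowest of those compared, at 0.0838 and 0.0472 CPM per kb, and the lowest *Lama5* library lay above the highest *Lama2* library. In *Lmna* ADKO vehicle livers, *Lamb3* was first at 7.54 ± 4.20 CPM per kb (SD, n = 6), and each of its libraries was above every *Lamc1* library, next at 2.11 ± 0.385. In *Lmna* ADKO FGF21 livers, *Lamb3* was also first at 3.03 ± 1.36 (SD, n = 8), with a range that overlapped that of *Lamc1*.

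As a share of the 3 β chain genes on this per-length scale, *Lamb3* held 26.6% ± 4.30 (SD, n = 7) in control vehicle and 73.7% ± 10.1 (SD, n = 6) in *Lmna* ADKO vehicle livers. With FGF21, its share was 25.99% ± 11.2 (SD, n = 3) in controls and 56.8% ± 6.41 (SD, n = 8) in *Lmna* ADKO livers. The summed β chain level was 2.61 ± 0.445 and 9.77 ± 4.24 CPM per kb with vehicle in control and *Lmna* ADKO livers. The summed α chain level was 1.33 ± 0.0994 and 1.39 ± 0.189 CPM per kb, and the sum of the γ chain genes *Lamc1* and *Lamc3* was 1.74 ± 0.251 and 2.57 ± 0.487 CPM per kb. β chain RNA per length exceeded each of these other sums in both genotypes, and in *Lmna* ADKO vehicle livers most of it was *Lamb3*.

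**Figure D2:**
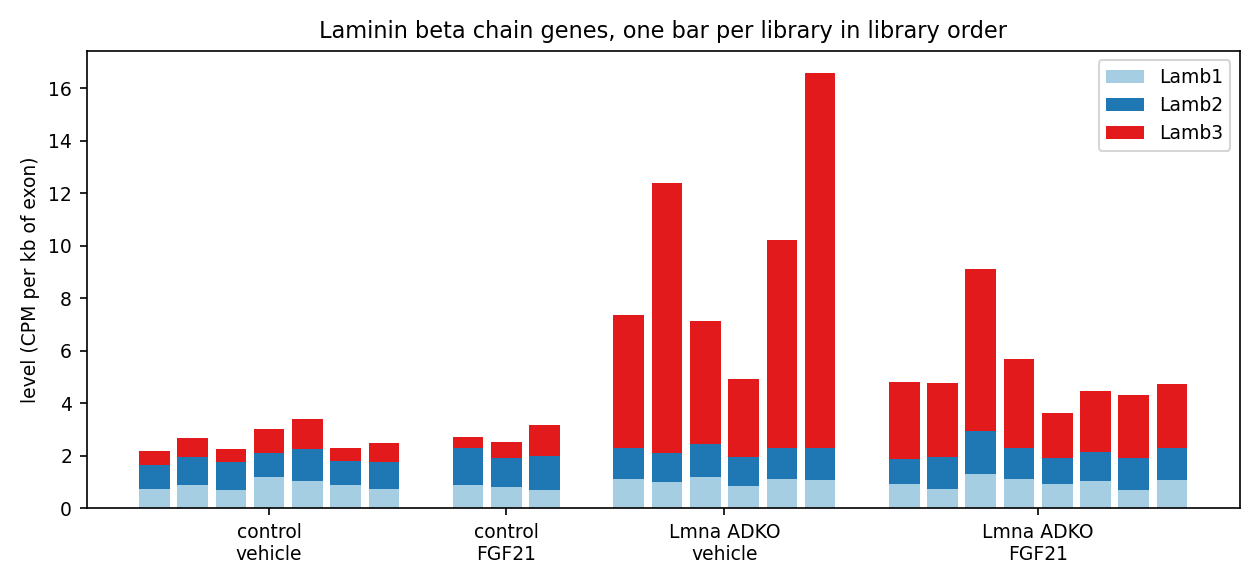
Levels of *Lamb1*, *Lamb2*, and *Lamb3* in CPM per kb of exon, stacked in one bar per library, by group. *Lamb1* stays between 0.681 and 1.31 and *Lamb2* between 0.903 and 1.64 CPM per kb in every library, while *Lamb3* ranges from 0.417 in controls to 14.3 in *Lmna* ADKO vehicle livers.

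Among the other chains, *Lama5* and *Lamc1* each had all but 1 *Lmna* ADKO vehicle library above every control vehicle library. *Lama5*, for the α5 chain of many mature epithelial and vascular basement membranes (chromosome 2, 180176373 to 180225859, minus strand), ranged from 1.80 to 2.92 CPM with a median of 2.10 in control vehicle and from 2.18 to 5.30 CPM with a median of 3.18 in *Lmna* ADKO vehicle livers. The groups overlapped, with 5 of 6 *Lmna* ADKO libraries above every control, and the log2 fold change was 0.69 (standard error 0.211). Without *Lmna* ADKO vehicle library 3 or 6, it was 0.62 or 0.53 and no longer past the threshold, which was also so at 0.75 with the number series as a covariate. With FGF21, *Lama5* was 3.05, 3.09, and 3.52 CPM in controls and from 2.06 to 6.01 CPM in *Lmna* ADKO livers, where the log2 fold change was -0.08 (standard error 0.255). *Lamc1*, for the γ1 chain found in most laminins (chromosome 1, 153218922 to 153332786, minus strand), ranged from 9.12 to 14.2 CPM in control vehicle and from 11.9 to 21.1 CPM in *Lmna* ADKO vehicle livers. All *Lmna* ADKO vehicle libraries but 1 lay above every control, and the log2 fold change of 0.55 (standard error 0.139) was under the fold change of 1.5 required for a call. It was past it, and the gene called, at 0.68 with the number series as a covariate, at 0.63 without *Lmna* ADKO vehicle library 4, and at 0.59 without control vehicle library 4 or 6. With FGF21, the log2 fold change of *Lamc1* was 0.53 (standard error 0.176).

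The remaining chains had overlapping groups with vehicle. *Lama2*, for the α2 chain of muscle and nerve, had medians of 1.08 CPM in control and 1.92 CPM in *Lmna* ADKO vehicle livers, with overlapping ranges (log2 fold change 0.50, standard error 0.281). *Lamc3*, for the γ3 chain, had medians of 1.703 and 2.35 CPM (log2 fold change 0.61, standard error 0.244). *Lama4*, for the α4 chain of vessels, had medians of 5.26 and 5.16 CPM (log2 fold change -0.10, standard error 0.152). *Lamb1*, for the widely used β1 chain, had medians of 8.62 and 10.96 CPM (log2 fold change 0.27, standard error 0.141). *Lamb2*, for the β2 chain of vessels, kidney, and synapses, had medians of 6.29 and 7.08 CPM (log2 fold change 0.19, standard error 0.116). *Lama1*, for the α1 chain prominent in embryos, had medians of 5.16 and 5.04 CPM (log2 fold change -0.16, standard error 0.149, edgeR adjusted p = 0.529).

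As a description only, the 9 chains were also counted by the threshold used for all genes. With vehicle, 2 (*Lamb3* and *Lama5*) were past an adjusted p under 0.05 and a fold change above 1.5, both higher, where 5.12% of all genes were called higher. With FGF21, 1 chain (*Lamb3*) was past it, where 1.61% of all genes were called higher. The groups did not overlap for 1 chain (*Lamb3*) with vehicle, where 7.95% of all genes did not overlap, and for 2 chains (*Lamb3* higher and *Lama3* lower) with FGF21, where 5.35% did not. Because the chains were chosen by these levels, nothing is read from these counts. The median log2 fold change of the 9 chains was 0.50 with vehicle and 0.17 with FGF21, beside medians of 0.003 and 0.018 over all genes. Because control FGF21 had only 3 libraries, single ones mattered there, and *Lamb3* had a log2 fold change of 1.74 without library 1 and 1.93 without library 2 and was then not past the threshold, nor was it at 1.84 with the number series as a covariate or at 1.57 in only the mice with 4-digit numbers.

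**Figure D3:**
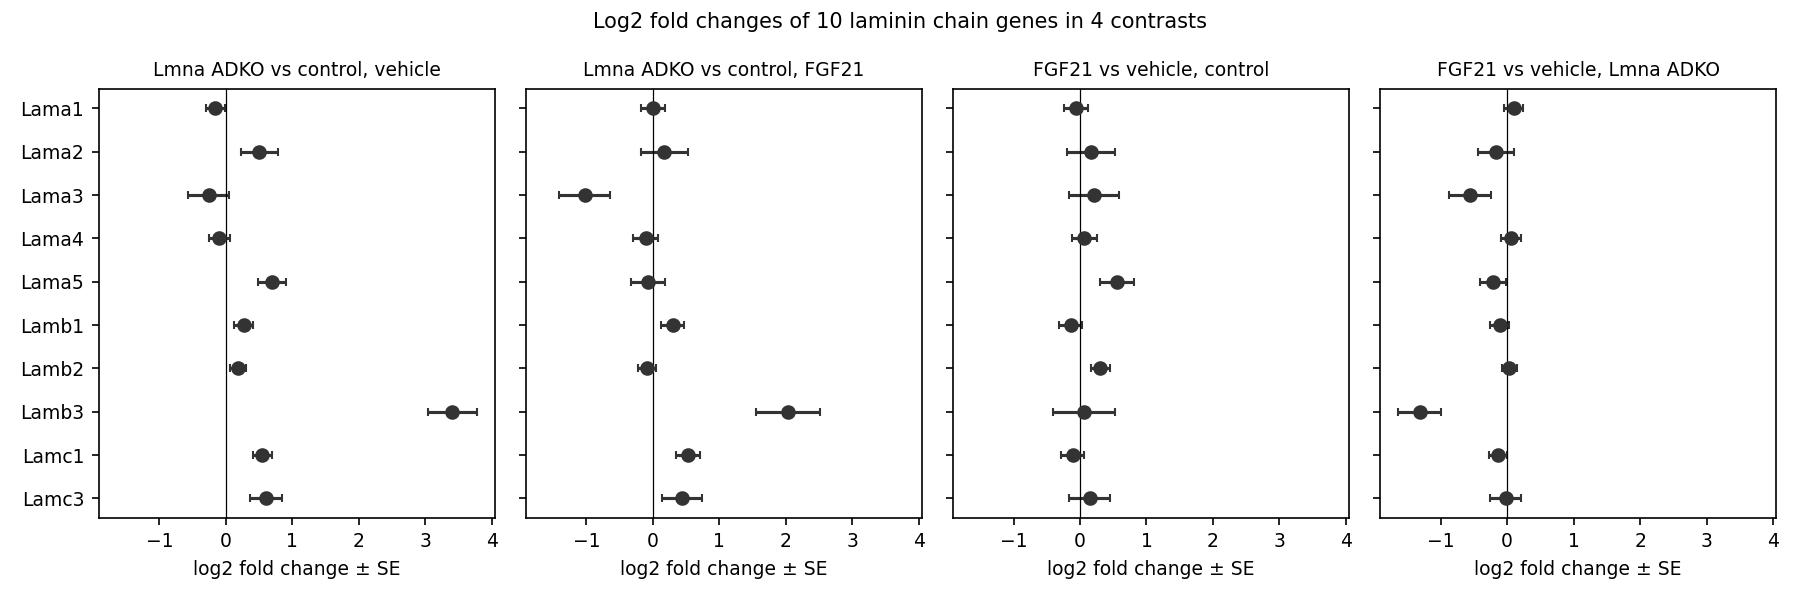
Log2 fold changes with standard errors (bars) of 10 laminin chain genes in the genotype and treatment contrasts, from 1 fit over all genes. *Lamb3* stands at 3.41 and 2.03 between genotypes and at -1.32 for FGF21 in *Lmna* ADKO livers, and the other chains stay between -1.03 and 0.69.

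FGF21 against vehicle was also compared for all 9 chains, whose choice may have rested on these levels too. In controls, 0 of 9 were called by edgeR (2 at an unadjusted p under 0.05, and 0 by DESeq2), where 0.0542% of all genes were called. *Lama5* was higher in each of the 3 FGF21 libraries than in every control vehicle library, where 1.67% of all genes did not overlap, but its log2 fold change of 0.56 (standard error 0.26, edgeR adjusted p = 0.771) did not pass. *Lamb2* had a log2 fold change of 0.31 (standard error 0.143, edgeR adjusted p = 0.771). In *Lmna* ADKO livers, 0 of 9 were called by edgeR (1, *Lamb3*, at an unadjusted p under 0.05, and the same 1 by DESeq2), where 0% of all genes were called by edgeR and 0.0626% by DESeq2. Apart from *Lamb3*, log2 fold changes ran from -0.56 (*Lama3*) to 0.05 (*Lama4*). For the interaction, 0 of 9 were called by edgeR (2 at an unadjusted p under 0.05, and 0 by DESeq2), where 0.00417% of all genes were called. These interaction counts are a description only and not a test of any chain. The interaction of *Lama5* was -0.77 (standard error 0.329). The interaction contains the genotype differences by which the chains were chosen, so nothing is read from it.

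Most pairs of chains had a positive correlation from liver to liver, in part through 1 library. *Lmna* ADKO FGF21 library 3 had the highest level of its group in 8 of 10 chains, at 3.898 CPM for *Lama2*, 6.01 CPM for *Lama5*, and 5.47 CPM for *Lamc3*. After subtracting group means of log2 CPM, the median Pearson correlation over the 45 pairs of chains was 0.359, with 40 pairs above 0, across 24 libraries. Without that library, the median was 0.178, with 33 pairs above 0. *Lama5* and *Lamc3* had the highest correlation of the 45 pairs, at 0.832 with the library and 0.74 without it. *Lamb3* and *Lamc3* were at 0.185 and -0.0661. The points share their library's scaling, no background of other gene pairs was computed, and no test was made.

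**Figure D4:**
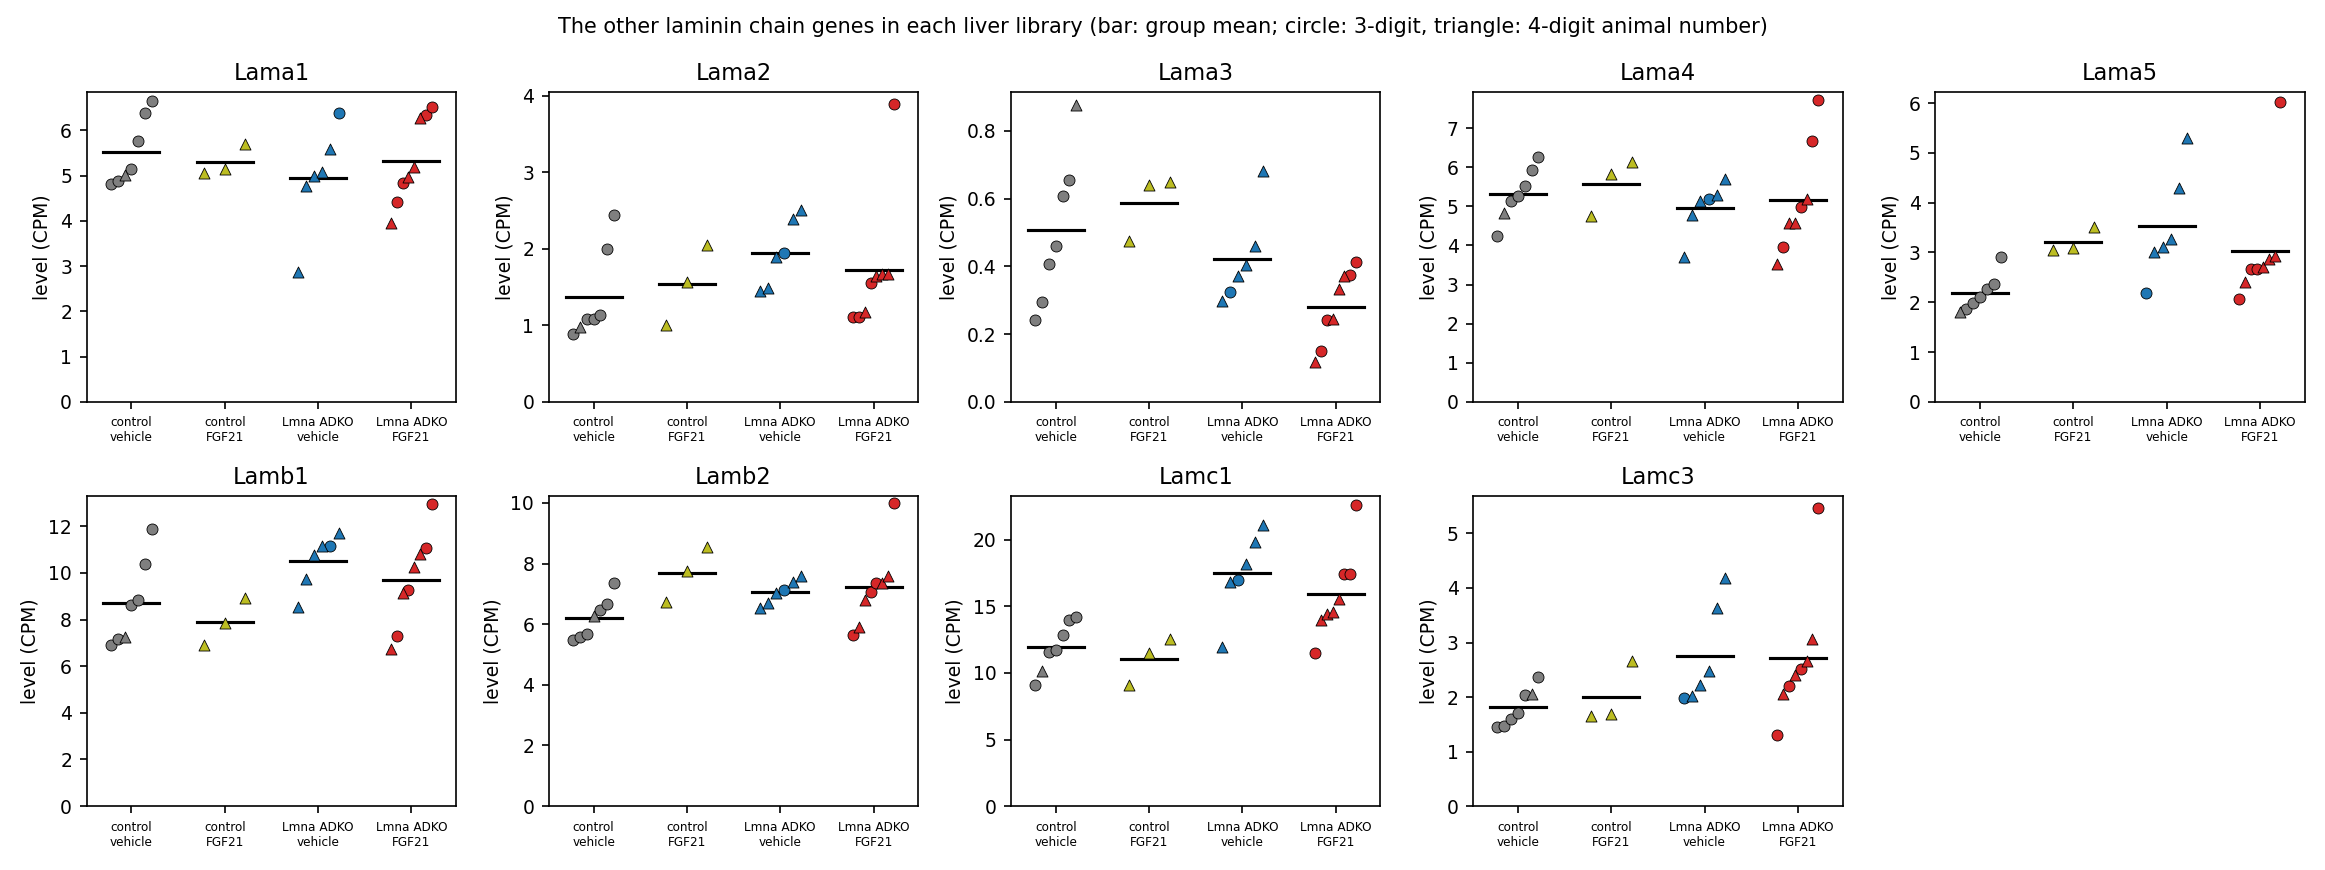
Levels in CPM of 9 laminin chain genes other than *Lamb3* in each library by group, on axes from 0, with circles and triangles for 3-digit and 4-digit animal numbers and a bar for each group mean. The ranges of the groups overlap in nearly every panel, and the highest *Lmna* ADKO FGF21 point for *Lama2*, *Lama5*, and *Lamc3* is library 3.

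Genes whose pattern was most like that of *Lamb3* were sought among 12492 genes, those whose log2 CPM averaged 0 or more. Over all 24 libraries, they were *Abcg2*, an efflux transporter (Pearson's r = 0.932, Spearman's rho = 0.93), *Slc35f2* (0.93 and 0.917), *Slc44a3* (0.924 and 0.894), *Gprc5b*, a receptor (0.922 and 0.92), and *Hsd17b12*, an enzyme of fatty acid elongation (0.922 and 0.901). Each of these had a higher mean in *Lmna* ADKO vehicle than in control vehicle livers, from 22.7 to 75.9 CPM for *Abcg2* and from 0.935 to 15.55 CPM for *Gprc5b*, so these correlations follow the genotypes. After subtracting group means, the closest genes were *Ssbp3* (0.782), *Abcb9* (0.757), *Tlr12* (0.744), *St6galnac2* (0.734), and *BC029722* (0.731), and without the 2 libraries farthest from the median of *Lamb3*, their r lay between 0.554 and 0.682. None of the other 8 laminin chains compared was among these genes, and *Lama3* was under the level required.

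Basement membrane genes outside the laminins were compared in the same fit. Their lists, and those of the cell type markers below, were chosen with earlier results of these data known. Their p-values between genotypes are therefore not independent of that knowledge and are given as a description. Of 31 genes for other matrix components, laminin receptors, and hemidesmosome proteins, 8 rose and 0 fell in *Lmna* ADKO against control livers with vehicle, where 5.12% of all genes rose. Their median log2 fold change was 0.29, beside 0.003 over all genes. Of the 16 matrix genes, 5 rose. *Col4a1* and *Col4a2*, for the ubiquitous type IV collagen chains, rose from 32.6 ± 6.12 to 73.6 ± 15.2 CPM and from 20.1 ± 3.14 to 41.1 ± 5.37 CPM (SD, n = 7 and 6), with log2 fold changes of 1.18 (standard error 0.172, edgeR adjusted p = 2.78e-05) and 1.03 (standard error 0.154, edgeR adjusted p = 2.86e-05). *Nid1*, which links laminin γ1 to type IV collagen, rose from 16.1 ± 2.69 to 38.7 ± 8.92 CPM (log2 fold change 1.27, standard error 0.19, edgeR adjusted p = 4.47e-05). *Col4a5*, for a minor type IV collagen chain, rose from 1.01 ± 0.442 to 2.47 ± 1.01 CPM (log2 fold change 1.28, standard error 0.318, edgeR adjusted p = 0.00603). For *Col4a1*, *Col4a2*, and *Nid1*, all 6 *Lmna* ADKO libraries were above all 7 controls. The fifth was *Nid2*, the other nidogen (log2 fold change 0.73). Its groups overlapped, from 1.93 to 5.75 CPM in control and from 3.51 to 7.69 CPM in *Lmna* ADKO vehicle livers. It was not called in a fit of only the groups compared. Nor was it without *Lmna* ADKO vehicle library 1, 3, 5, or 6 or control vehicle library 1, 2, 3, 5, or 7. *Col18a1*, for the collagen from which endostatin is cut, had a mean of 969 CPM in control and 739 CPM in *Lmna* ADKO livers with no overlap (log2 fold change -0.39), which did not reach the fold threshold.

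Of the 12 laminin receptor genes, 3 rose with vehicle. *Itga6*, for the integrin α6 that binds laminins with β1 or β4, rose from 2.31 ± 0.365 to 6.42 ± 1.91 CPM, with all 6 *Lmna* ADKO libraries above all 7 controls (log2 fold change 1.47, standard error 0.232, edgeR adjusted p = 6.03e-05). *Bcam*, a receptor of the laminin α5 chain, rose from 4.04 ± 0.648 to 7.12 ± 2.26 CPM, also with no overlap (log2 fold change 0.82, standard error 0.199, edgeR adjusted p = 0.00496). *Itga2* rose from 0.123 ± 0.103 to 0.378 ± 0.216 CPM (log2 fold change 1.57, standard error 0.454, edgeR adjusted p = 0.0176), from at most 7 and 19 reads per library. *Itgb1*, *Dag1*, *Itga3*, and the other receptors did not pass. Of the 3 hemidesmosome genes *Plec*, *Dst*, and *Col17a1*, 0 were called by edgeR (2 at an unadjusted p under 0.05, and 0 by DESeq2).

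With FGF21, 4 of the 31 genes rose in *Lmna* ADKO against control livers and 0 fell, where 1.61% of all genes rose. They were *Itga6* (log2 fold change 1.58, standard error 0.317, edgeR adjusted p = 0.00401), *Col4a2* (0.96, standard error 0.198, edgeR adjusted p = 0.00507), *Col4a1* (1.01, standard error 0.221, edgeR adjusted p = 0.00879), and *Nid1* (0.98, standard error 0.245, edgeR adjusted p = 0.0214). Without control FGF21 library 3, 1 of them (*Col4a2*) was called, and without the 3 libraries with a length slope, 0 were. FGF21 against vehicle called 0 of the 31 by edgeR and 0 by DESeq2 in either genotype (2 in controls and 3 in *Lmna* ADKO livers at an unadjusted p under 0.05), and the interaction called 0 by both (1 at an unadjusted p under 0.05).

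**Figure D5:**
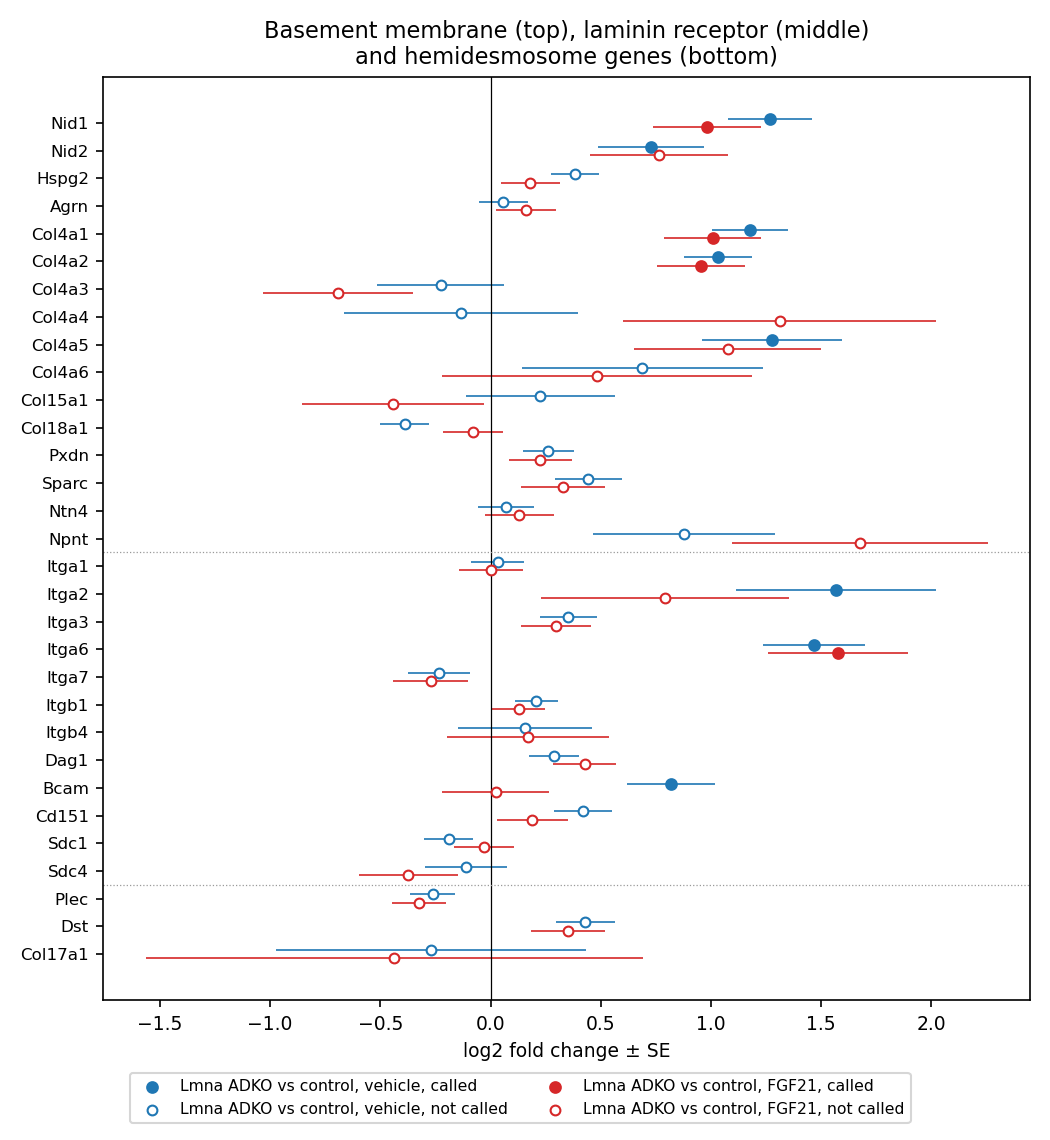
Log2 fold changes between genotypes with standard errors for 16 basement membrane, 12 laminin receptor, and 3 hemidesmosome genes, with vehicle in blue and FGF21 in red and filled points for called genes. Of the filled points, 8 with vehicle and 4 with FGF21, all lie to the right of 0.

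Markers of other cell types moved with genotype as well. Of 8 bile duct markers, edgeR called 1 higher with vehicle, *Spp1*, which is also made by other cells (32.7 ± 7.28 to 116 ± 38.5 CPM). DESeq2 called 2, and 5 had an unadjusted p under 0.05 by edgeR. All 8 had a log2 fold change above 0, with a median of 0.87, beside 0.003 over all genes. The defining keratin *Krt19* had means of 0.934 and 1.75 CPM (log2 fold change 0.90, edgeR adjusted p = 0.0933), although its groups did not overlap. *Krt7* had means of 0.633 and 1.04 CPM and *Epcam* of 1.75 and 2.72 CPM, and none of these passed in edgeR. The summed bile duct list ran from 27.8 to 52.3 CPM in control vehicle, from 33.2 to 39.8 in control FGF21, from 86.7 to 198 in *Lmna* ADKO vehicle, and from 51.3 to 244 CPM in *Lmna* ADKO FGF21 livers, and its highest library, *Lmna* ADKO FGF21 library 3, was the one high in most laminin chains. Without *Spp1*, the list ran from 4.42 to 8.70 CPM in control vehicle and from 7.98 to 12.5 CPM in *Lmna* ADKO vehicle livers, which overlapped. *Lmna* ADKO FGF21 library 3 then had 19.9 CPM and the others of its group 4.96 to 12.8 CPM. Of 10 stellate cell and fibroblast markers, 3 rose with vehicle (*Lrat*, *Col1a2*, *Col3a1*). Their median log2 fold change was 0.38, with 7 of 10 above 0 and the others below. The summed list ran from 279 to 417 CPM in control vehicle and from 354 to 560 CPM in *Lmna* ADKO vehicle livers, which overlapped. Of 4 smooth muscle markers, 2 rose (*Acta2*, *Tagln*), with sums of 10.1 to 21.1 and 23.5 to 37.8 CPM that did not overlap. The median log2 fold change of this list was 0.74, with 3 of 4 above 0. Of 6 sinusoidal endothelial markers, 1 rose (*Lyve1*), of 4 vascular endothelial markers 1 (*Vwf*), and of 6 macrophage markers 1 (*Gpnmb*), and 0 of these fell, beside the 5.12% of all genes that rose. The median log2 fold changes of the sinusoidal and macrophage lists were -0.29 and -0.21, with 2 of 6 markers above 0 in each. With FGF21, edgeR called 2 genes higher (*Lyve1* and *Tagln*) and 0 lower in these lists of 8, 10, 4, 6, 4, and 6 markers. Of all genes, 1.61% were called higher. DESeq2 called 1 bile duct, 2 sinusoidal, 1 smooth muscle, and 1 macrophage marker in either direction. At an edgeR adjusted p alone, 1 stellate cell and fibroblast marker was lower. Of 5 hepatocyte, 3 mesothelial, 3 nerve sheath, 3 skeletal muscle, 3 basal epithelial, and 3 adipocyte markers, 0 were called by edgeR or DESeq2 with vehicle (2, 0, 1, 0, 0, and 0 at an unadjusted p under 0.05). The hepatocyte list had a median log2 fold change of -0.36, with 1 of 5 above 0 and 1 lower at an adjusted p alone. Of 2 pancreatic markers, edgeR called *Cela3b*, from at most 3 reads per library, and DESeq2 called 0. Their summed list was at most 0.139 CPM in any library. Skeletal muscle markers reached 18.4 CPM in *Lmna* ADKO FGF21 library 2. The basal epithelial markers *Krt5*, *Krt14*, and *Trp63*, of the cells in which the trimer of *Lamb3* is best known, summed to at most 0.171 CPM in any library, which is about the floor of 3 reads. The part of these cell types in the differences of the laminin chains was not tested.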

How the data were processed

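Polyadenylated liver RNA was sequenced in strand-marked libraries. The deposited values are read counts per gene for 24 libraries, made by the authors, and all are whole numbers. The submitters' processing notes name cutadapt 4.8, FastQC 0.11.8, STAR 2.7.8a, RSEM 1.3.3, and the GRCm38 build, and the study's methods name Ensembl 102 and DESeq2. Genes were matched to GENCODE M21 (23926 of 23972). Counts of all genes were fitted in 1 model of 4 groups with edgeR 4.0.16 in R 4.3.3 (TMM, robust quasi-likelihood test, Benjamini-Hochberg adjustment), and a gene was called at an adjusted p under 0.05 and a fold change above 1.5. The fit was tested on simulated data. CPM used TMM library sizes, and log2 CPM a prior count of 2. *Lamb3* was also compared by an exact permutation test (scipy 1.17.1). Alternatives included DESeq2 1.42.0. The mice were the replicates, and 67 pairs of libraries within groups all differed beyond sampling noise.

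The members and gene lists were chosen with earlier results of these data known. Named genes were the 9 listed laminin chains and *Lama1*, *Lmna* and *Fgf21*, up to 4 called genes with the largest fold change of the matrix, receptor, and hemidesmosome lists in each contrast, up to 3 markers of each cell type by level, and the 5 genes most correlated with *Lamb3* in each way. *Nid2*, the matrix, receptor, and hemidesmosome genes that were not called, and the called cell type markers with *Krt19*, *Krt7*, and *Epcam* were named after their values were seen. Of the listed marker genes, 2 were not matched. A gene that the rule would also name is not reported here.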

Additional observations from a re-analysis of the deposited data

Results flagged for a closer look

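Each of 10 laminin chains was examined in each of the 3 groups of at least 4 libraries for a highest or lowest library far from the others by Dixon's criterion, and 3 of 30 sets had one, where chance gives about 1 in 20. *Lmna* ADKO FGF21 library 3 stood apart in *Lama2*, at 3.898 CPM against 1.10 to 1.67 CPM in the other 7, and in *Lama5*, at 6.01 CPM against 2.06 to 2.92 CPM. The same library had the highest summed bile duct markers (244 CPM) and the highest summed stellate cell and fibroblast markers (632 CPM), and the part of these in its laminin values was not tested. *Lmna* ADKO vehicle library 4 was low in *Lama1*, at 2.87 CPM against 4.77 to 6.39 CPM.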

How the results depend on the processing

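Of 972 fold changes of laminin chains under alternatives, 945 kept their side of the threshold and their size within the limits set, 12 moved, 7 lost a call, 8 gained one, and 0 called values changed sign, while 58 values that were not called did. At an adjusted p alone, 13 matrix, receptor, and hemidesmosome genes were called between genotypes with vehicle. With FGF21, 0 laminin chains were called between genotypes with the number series as a covariate or in only the 4-digit numbers, and the matrix, receptor, and hemidesmosome genes called were 1 in a fit of only the groups compared, 1 in only the 4-digit numbers, and 0 without the 3 libraries with a length slope. DESeq2 called 1 chain for FGF21 in *Lmna* ADKO livers. The difference in *Lamb3* for FGF21 in controls was -0.47 (log2) without the 3 libraries with a length slope. With each library left out in turn, chains called between genotypes ran from 1 to 3 with vehicle and from 0 to 1 with FGF21, and the matrix, receptor, and hemidesmosome genes from 6 to 8 and from 1 to 5. Chains called for FGF21 in *Lmna* ADKO livers ran from 0 to 1. The difference in *Lamb3* for FGF21 ran from -0.39 to 0.35 in controls (-0.39 without control FGF21 library 3, and -0.05, -0.07, and -0.07 without control vehicle library 1, 3, or 6) and from -1.45 to -0.997 in *Lmna* ADKO livers. Without the highest library of each *Lmna* ADKO group, chosen after seeing the data, it was -1.16. The causes were not tested. No paired analysis was possible because the animal numbers do not pair mice between groups. Depth limits *Lama3*, with 2 to 18 reads per library.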
